A study of Mus musculus with 10 samples.

Results

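The 9 genes described here encode Ras GTPase activating proteins (Ras GAPs) and were taken by name from the 33632 gene IDs of a count table of mouse colon crypts, the pits of the gut lining where its stem cells sit. They are Rasa1, Rasa2, Rasa3, Rasa4, Rasal1, Rasal2, Rasal3, Nf1 and Dab2ip. The set was drawn up around Rasa4 because its level in the same comparison was already known to be low, so the differences between groups given for the 9 genes are descriptions and carry no test. RNA was sequenced from 5 libraries labelled CKO and 5 labelled flox. CKO mice had the genotype Lgr5-EGFP-IRES-CreERT2/+;Sox21fl/fl, in which a tamoxifen-inducible Cre made from the Lgr5 locus can delete the transcription factor gene Sox21 in Lgr5-positive stem cells and their descendants. The flox mice were Sox21fl/fl without the Cre knock-in, so both groups carry the loxP-flanked Sox21 alleles and only CKO carries the altered Lgr5 allele. All mice had a normal diet and a normal liver. The labels state neither the age of the mice, nor the tamoxifen given to flox mice, nor whether each library is a separate animal, so p-values measure only the spread between these libraries, which may be technical.

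Ras proteins are membrane switches that are active when bound to GTP and inactive when bound to GDP. Exchange factors load them with GTP, and Ras GAPs shut them off by speeding up the hydrolysis of GTP. In the colon crypt, signals from epidermal growth factor receptors pass through Ras to the Raf, MEK and ERK kinases, which sustain the division of stem and progenitor cells. The family falls into groups by the domains beside the GAP domain. Rasa2, Rasa3, Rasa4 and Rasal1 carry paired C2 domains and a pleckstrin homology domain, and those of Rasa4 and Rasal1 bring them to the membrane when calcium rises. Dab2ip, Rasal2 and Rasal3 form a further group. Rasa1 binds phosphorylated receptors through SH2 domains, and Nf1 is neurofibromin, the tumour suppressor of neurofibromatosis.

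Library totals ran from 18926634 to 23642415 counts in CKO and from 21414122 to 23407565 counts in flox. A pair of flox libraries stood apart. The mitochondrial share of the counts was 26.5% (flox 1) and 29.3% (flox 4), with 4.30% to 11.8% elsewhere, and their trimmed mean of M values (TMM) scaling factors were 0.585 and 0.605, with 0.965 to 1.28 elsewhere. Long genes read low in these libraries, with a slope of log2 level on log2 gene length of -0.25 in flox 1 and -0.14 in flox 4, against -0.07 to 0.11 elsewhere. For the fold changes of the 8 tested members and of the named pathway genes, values without this pair are therefore given too. Sox21 itself stood at 5.33 ± 1.94 CPM (counts relative to the TMM-scaled library size) in CKO and 4.04 ± 1.80 CPM in flox (mean ± SD of 5 libraries). The edgeR log2 fold change was 0.38 ± 0.34 (SE; adjusted p = 0.577). The targeted transcript thus does not check the labels, and CKO and flox mean the libraries labelled so.

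Rasa4 (ENSMUSG00000004952) had the lower level in every CKO library. It read 55.5, 70.5, 45.1, 54.1 and 45.1 CPM in CKO 1 to 5, against 132, 88.3, 101, 110 and 87.0 CPM in flox 1 to 5. The groups did not overlap, and the highest flox values were in flox 1 and flox 4. The means were 54.1 ± 10.4 CPM in CKO and 104 ± 18.3 CPM in flox (± SD, 5 libraries a group). The fitted CKO to flox ratio was 0.522, or -0.94 ± 0.16 (SE) as a log2 fold change. Without flox 1 and flox 4 the flox mean was 92.1 ± 7.70 CPM (n = 3), the groups still did not overlap, and the log2 fold change was -0.76 ± 0.15 (SE).

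**Figure D1:**
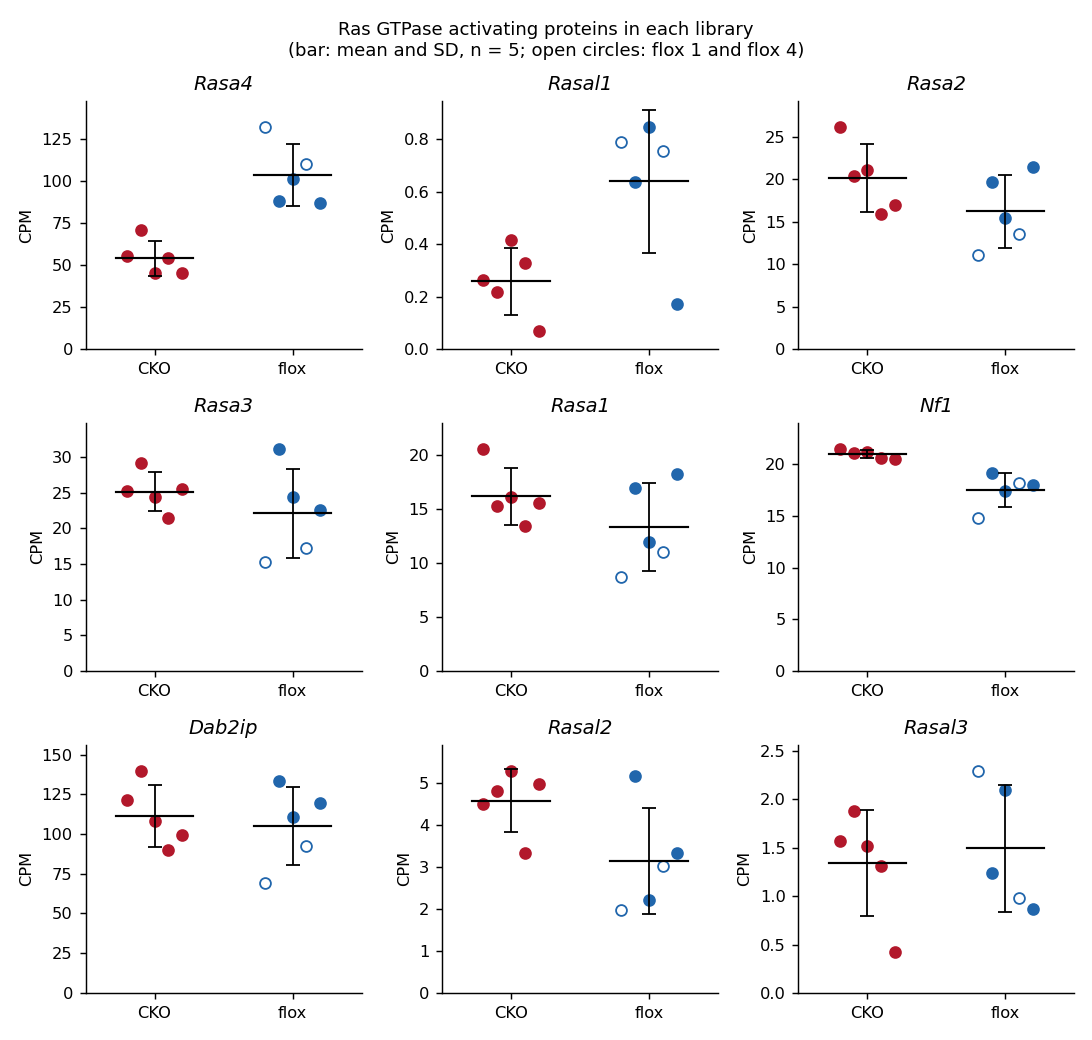
Level of each of the 9 Ras GAP genes in each library, in TMM-scaled CPM on linear axes that start at 0, with CKO left of flox, the mean and SD of each group (n = 5) and flox 1 and flox 4 as open circles. Rasa4 lies at 45.1 to 70.5 CPM in CKO and 87.0 to 132 CPM in flox, and Nf1 at 20.6 to 21.5 CPM in CKO and 14.9 to 19.1 CPM in flox; the other 7 genes overlap between the groups.

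How far apart the groups of Rasa4 stood depended on the scale. The raw counts were 1269, 1951, 1306, 987 and 1277 in CKO 1 to 5 and 1667, 2490, 2268, 1453 and 2014 in flox 1 to 5, which overlap through CKO 2. In the authors' FPKM (fragments per kilobase of gene, scaled to library depth), Rasa4 was at 28.9, 38.4, 30.7, 29.1 and 28.3 in CKO 1 to 5 and 35.4, 46.2, 46.8, 29.8 and 41.9 in flox 1 to 5. Here CKO 2 lay above flox 1 and flox 4 and CKO 3 above flox 4, and the difference in log2(FPKM + 1) was -0.34 ± 0.18 (SE). Dividing the FPKM by the TMM factor of each library gave -0.75 ± 0.15 (SE) on the same scale.

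**Figure D2:**
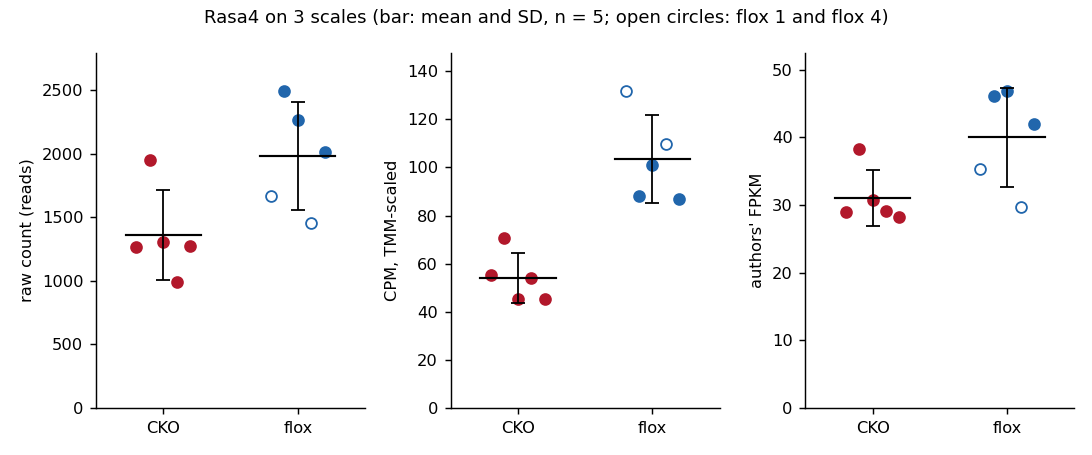
Rasa4 in each library as raw reads, as TMM-scaled CPM and as the authors' FPKM, with CKO left of flox, the mean and SD (n = 5) and flox 1 and flox 4 as open circles. The groups are separate in CPM and overlap in raw reads and in FPKM, where CKO 2 (38.4 FPKM) stands above flox 1 (35.4) and flox 4 (29.8).

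The gene length that the authors' files imply for Rasa4, from the count, the FPKM and the library total, was not the same in all libraries. It was 2187, 2151, 1859, 1795 and 2035 bases in CKO 1 to 5 and 2179, 2304, 2246, 2231 and 2244 bases in flox 1 to 5. All CKO values but that of CKO 1 lay below all flox values. Of 10139 tested genes with at least 1 FPKM in every library, 39.8% had an implied length that varied by less than 1.1 times, so a length that moves between libraries was common. The sources used here do not say how the lengths were set.

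The promoter of Rasa4 is shown because Sox21 is the factor that the design targets and Rasa4 is the member with the largest log2 fold change among the 8 tested. The 250 bases before its RefSeq start (GRCm38.p6, chr5:136083666-136083915, plus strand) are printed with both CCAAT boxes, the site of nuclear factor Y, in capitals.
Rasa4 promoter: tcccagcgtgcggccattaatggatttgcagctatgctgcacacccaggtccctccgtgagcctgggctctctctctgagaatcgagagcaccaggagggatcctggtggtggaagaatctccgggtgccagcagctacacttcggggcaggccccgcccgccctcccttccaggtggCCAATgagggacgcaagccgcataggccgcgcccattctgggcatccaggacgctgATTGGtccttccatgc
ACAAT, or ATTGT on the other strand, was the only form of the core bound by Sox proteins that was searched. It occurred 0 times in this window, in 27.7% of 32817 promoter windows of the same length, and in 0 of the 8 Ras GAP genes with an entry. CCAAT or ATTGG occurred 2 times in the Rasa4 window, in windows of 4 of those 8 genes and in 33.8% of all windows. These are matches of letters only; no binding was measured.

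The nearest protein-coding genes on either side of Rasa4 were not called, but edgeR called 0 of all 14963 tested genes, Rasa4 included. Polr2j, a subunit of RNA polymerase II and the next such gene after Rasa4 in GENCODE M21, stood at 33.0 ± 6.12 CPM in CKO and 33.3 ± 10.7 CPM in flox (edgeR adjusted p = 0.986). Lrwd1, which binds the origin recognition complex, stood at 16.0 ± 1.18 CPM in CKO and 18.7 ± 2.47 CPM in flox (edgeR adjusted p = 0.428). On the other side Upk3b, a uroplakin, stood at 5.44 ± 2.09 CPM in CKO and 4.08 ± 1.62 CPM in flox (edgeR adjusted p = 0.539), and Upk3bl had at most 2 counts in a library. Their log2 fold changes were -0.01 ± 0.21 for Polr2j (0.34 without flox 1 and flox 4), -0.22 ± 0.12 for Lrwd1 (-0.18) and 0.41 ± 0.32 for Upk3b (0.25; all ± SE). Gm15701, annotated across exons of Rasa4 on the opposite strand, had no entry in the count table. Since the strand setting of the counting is not given, reads of Gm15701 cannot be told from those of Rasa4.

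The relatives of Rasa4 with C2 domains overlapped between the groups. Rasal1 (ENSMUSG00000029602), the other calcium sensor of the group, was barely detected. It had 6, 6, 12, 6 and 2 counts in CKO 1 to 5 and 10, 18, 19, 10 and 4 counts in flox 1 to 5. With all 10 libraries it failed the filter on low counts. Without flox 1 and flox 4 Rasal1 passed it, with a log2 fold change of -1.09 ± 0.59 (SE). With all libraries and no filter the value was -1.26 ± 0.56 (SE), so at these low counts Rasal1 ran the same way as Rasa4. Its summed count was 32 in CKO and 61 in flox, and in CPM the groups overlapped through flox 5. Rasa2 (ENSMUSG00000032413), a GAP for Ras that also restrains T cell signalling, ranged from 15.9 to 26.1 CPM in CKO and from 11.1 to 21.5 CPM in flox, a log2 fold change of 0.30 ± 0.20 (SE). Rasa3 (ENSMUSG00000031453), which acts on Rap as well as Ras and is known from platelets, ranged from 21.5 to 29.2 CPM in CKO and from 15.2 to 31.1 CPM in flox, a log2 fold change of 0.18 ± 0.18 (SE). Both genes had their lowest value of all 10 libraries in flox 1. Without flox 1 and flox 4 their log2 fold changes were 0.10 ± 0.17 for Rasa2 and -0.04 ± 0.14 for Rasa3 (SE).

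Nf1 (ENSMUSG00000020716), which turns off Ras in most cell types, was the only other member whose groups did not overlap in CPM. It read 21.5, 21.1, 21.2, 20.6 and 20.6 CPM in CKO 1 to 5 and 14.9, 19.1, 17.4, 18.2 and 18.0 CPM in flox 1 to 5. The SD was 1.80% of the mean in CKO and 9.22% in flox. With 377 to 613 counts per CKO library, the CKO spread is smaller than counting noise alone would give. The means were 21.0 ± 0.378 CPM in CKO and 17.5 ± 1.62 CPM in flox (± SD, 5 libraries a group). The log2 fold change was 0.26 ± 0.10 (SE) with all libraries and 0.21 ± 0.11 (SE) without flox 1 and flox 4. Nf1 has a long transcript, and with the trend on gene length removed in each library the log2 fold change was 0.08 ± 0.12 (SE). In FPKM its groups overlapped, at 2.42 to 4.69 in CKO and 1.41 to 4.12 in flox. Rasa1 (ENSMUSG00000021549) ranged from 13.4 to 20.5 CPM in CKO and from 8.69 to 18.2 CPM in flox. Its log2 fold change of 0.27 ± 0.21 (SE) became 0.05 ± 0.17 (SE) without flox 1 and flox 4. Ccnh, a cyclin gene on the opposite strand, overlaps exons of Rasa1 and had 60 to 349 counts per library, so reads shared by the pair cannot be told apart.

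Dab2ip (ENSMUSG00000026883), a scaffold that turns off Ras and restrains NF-kappa B signalling, was the member with the highest counts beside Rasa4. It read 121, 140, 108, 89.8 and 99.1 CPM in CKO 1 to 5 and 69.4, 133, 110, 92.3 and 120 CPM in flox 1 to 5. The groups overlapped almost fully, and flox 1 was the lowest of all libraries. Its log2 fold change was 0.09 ± 0.18 (SE), and -0.11 ± 0.15 (SE) without flox 1 and flox 4. Rasal2 (ENSMUSG00000070565), a Ras GAP described as a tumour suppressor of the breast, ranged from 3.34 to 5.28 CPM in CKO and from 1.97 to 5.18 CPM in flox, a log2 fold change of 0.53 ± 0.26 (SE), and of 0.36 ± 0.27 (SE) without flox 1 and flox 4. Rasal3 (ENSMUSG00000052142), a GAP of blood cells, ranged from 0.424 to 1.88 CPM in CKO and from 0.864 to 2.29 CPM in flox, a log2 fold change of -0.15 ± 0.41 (SE), and of -0.05 ± 0.45 (SE) without that pair. It had 12 to 52 counts per CKO library and 13 to 47 per flox library.

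**Figure D3:**
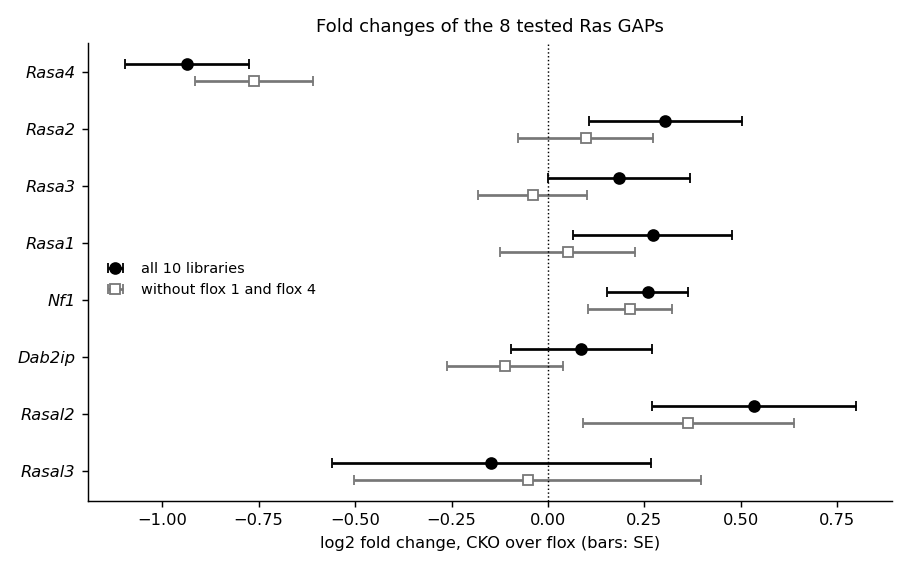
Log2 fold change, CKO over flox, of the 8 Ras GAPs that passed the filter, with the standard error of the edgeR fit, from all 10 libraries (filled circles) and without flox 1 and flox 4 (open squares). Rasa4 lies at -0.94 and -0.76, while the other 7 lie between -0.15 and 0.53 with all libraries and between -0.11 and 0.36 without the pair. Rasal1, which passed the filter without the pair but not with all 10 libraries, is not shown.

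Of the 8 tested members 6 were higher and 2 lower in CKO, with a median log2 fold change of 0.26 for the 7 other than Rasa4, against 0.0010 over all 14963 tested genes. Without flox 1 and flox 4 the median of the 7 was 0.05, with 4 higher and 3 lower, and Rasa3 and Dab2ip had turned from higher to lower. In flox 1, 6 of the 8 tested members had their lowest flox value, and Rasa4 and Rasal3 had their highest. With the trend on gene length removed in each library, the median of the 7 was 0.14 and Rasa4 stood at -1.05. The part of gene length in the split seen in flox 1 was not tested. The edgeR test called 0 of the 8 at an adjusted p of 0.05, where it called 0.0% of all genes, and 2 (Rasa4 and Nf1) were at an unadjusted p under 0.05, where 13.0% of all genes were. DESeq2 called 1 of the 8, Rasa4, where it called 1.21% of genes (0.804% lower in CKO), and limma voom with quality weights also called 1, Rasa4 (0.194% of genes lower), where it called 0.294% of genes. The groups were apart in CPM for 2 of the 8, 1 higher (0.922% of all tested genes) and 1 lower (1.26%), or 2.18% of genes in all, and in FPKM for 0 (1.95% of genes). Because Rasa4 was picked from this comparison, these counts are given without a reading.

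Set against its family within each library, Rasa4 was also lower in CKO. Such a ratio needs no scaling between libraries, but it reuses the same Rasa4 values and can shift where long genes read low. The authors' files imply 4030 to 4731 bases for Dab2ip and 1795 to 2304 bases for Rasa4. The annotated exon lengths lie closer together, at 8366 bases for Dab2ip and 7485 bases for Rasa4. The part of gene length in the ratio was not tested. For every 100 reads of Dab2ip there were 45.8, 50.6, 41.8, 60.2 and 45.5 reads of Rasa4 in CKO 1 to 5 and 190, 66.3, 91.4, 119 and 72.8 in flox 1 to 5. The groups did not overlap, and flox 1 and flox 4 again stood highest. The means were 48.8 ± 7.13 in CKO and 108 ± 50.1 in flox (SD, n = 5 each), or 76.8 ± 13.0 in flox without that pair (n = 3). Relative to the mean log2 CPM of the 7 other tested members, Rasa4 stood 1.92 ± 0.24 higher in CKO and 3.09 ± 0.49 higher in flox (SD, n = 5 each), a difference of -1.18. Leaving out flox 1 and flox 4 gave -0.85, and removing the trend on gene length gave -1.16. That trend used the annotated exon length, 7485 bases for Rasa4, against the 1795 to 2304 bases implied by the authors' files. The value therefore cannot tell how far gene length enters the difference.

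**Figure D4:**
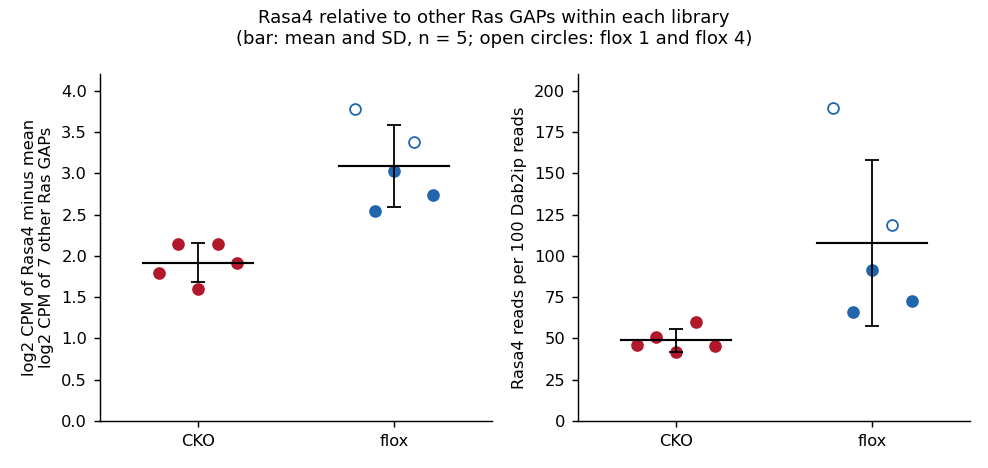
Rasa4 relative to other Ras GAPs in each library, with CKO left of flox, the mean and SD (n = 5) and flox 1 and flox 4 as open circles. Left, log2 CPM of Rasa4 minus the mean log2 CPM of the 7 other tested members, from 1.60 to 2.15 in CKO and from 2.54 to 3.78 in flox; right, reads of Rasa4 per 100 reads of Dab2ip, from 41.8 to 60.2 in CKO and from 66.3 to 190 in flox.

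By level per length, Rasa4 and Dab2ip led the family in both groups. The authors' FPKM averaged 31.1 ± 4.17 for Rasa4 and 30.5 ± 7.15 for Dab2ip in CKO, and 40.0 ± 7.32 for Rasa4 and 21.9 ± 11.2 for Dab2ip in flox (SD, n = 5 each). Rasa4 was above Dab2ip in 1 of 5 CKO libraries and in 5 of 5 flox libraries. Rasa3 and Rasa1 came next, at 8.56 ± 1.35 and 8.20 ± 1.28 FPKM in CKO and 6.50 ± 3.21 and 6.18 ± 3.30 FPKM in flox, and these neighbours did not differ beyond their spread. Rasa2 and Nf1 followed at 4.37 ± 1.04 and 3.70 ± 0.891 FPKM in CKO and 2.89 ± 1.56 and 2.79 ± 0.961 FPKM in flox, again with ranges that overlapped. Rasal3, Rasal2 and Rasal1 had means under 1 FPKM in both groups. Of the summed FPKM of the 9 genes, Rasa4 made up 35.6% ± 3.89 in CKO and 51.3% ± 9.65 in flox, and Dab2ip 34.4% ± 3.17 in CKO and 25.4% ± 6.05 in flox (SD, n = 5 each). The share of Rasa4 overlapped between the groups through CKO 4 at 42.2% and flox 2 at 41.2%, and in flox 2, flox 3 and flox 5 it was 41.2% to 49.4%.

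Epithelial markers were high in all libraries. The 9 epithelial markers (3 higher, 6 lower, median log2 fold change -0.04) summed to between 12237 and 22104 CPM in CKO and between 17094 and 26317 CPM in flox. The highest were the keratins Krt8 (7895 ± 2112 CPM in CKO, 10841 ± 2186 CPM in flox) and Krt19 (4358 ± 1035 CPM in CKO, 5671 ± 1257 CPM in flox). The 15 leukocyte markers summed to 44.3 to 53.9 CPM in CKO and 32.3 to 71.4 CPM in flox, none was at 0 in all libraries, and Lyz2 and Laptm5 were the highest. Goblet cell markers ran the same way as Rasa4. All 8 had negative log2 fold changes, with a median log2 fold change of -0.72 and a sum of 13650 to 25315 CPM in CKO against 24919 to 41544 CPM in flox, ranges that met only between CKO 2 and flox 4. Muc2, the main mucin of the colon, stood at 8579 ± 2059 CPM in CKO and 14218 ± 3129 CPM in flox. Of the 8 goblet markers edgeR called 0 and DESeq2 called 2, where it called 1.21% of all genes. The fibroblast and muscle markers, 8 of 10 tested and all 8 higher in CKO (median log2 fold change 0.89), summed to 45.0 to 183 CPM in CKO and 17.7 to 63.9 CPM in flox, led by the collagens Col3a1 and Col1a2, and edgeR and DESeq2 called 0 of them. The 8 absorptive colonocyte markers (5 higher, 3 lower, median log2 fold change 0.22) summed to 5094 to 15258 CPM in CKO and 9921 to 14913 CPM in flox. Platelet and red cell markers summed to 21.0 to 180 CPM in CKO and 9.68 to 64.9 CPM in flox, endothelial markers to 4.33 to 8.16 CPM in CKO and 7.86 to 10.2 CPM in flox, and the enteric neuron and glia markers to 2.10 to 4.05 CPM in CKO and 2.42 to 4.41 CPM in flox. Of the 2 tested endothelial markers 1 was higher and 1 lower. DESeq2 called 1 of them, where it called 1.21% of all genes, and edgeR called 0. Vwf, von Willebrand factor, stood at 3.57 ± 0.486 CPM in CKO and 6.48 ± 0.564 CPM in flox. Pecam1 stood at 1.77 ± 0.865 CPM in CKO and 1.60 ± 0.581 CPM in flox. The part of cell makeup in the difference of Rasa4 was not tested, and in bulk RNA fewer cells of a type cannot be told from less RNA per cell.

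The genes whose level followed Rasa4 most closely within the groups were Phc2, Nacc1, Dbnl, Ocel1 and Dda1. After the group mean was subtracted from log2 CPM, their Pearson correlations with Rasa4 over the 10 libraries were 0.971, 0.967, 0.954, 0.953 and 0.953, the highest among 11571 genes with a mean of at least 2 CPM. All the points are the same 10 libraries, with flox 1 and flox 4 among them, so no p is given. Between the groups these genes differed less than Rasa4. Phc2, a polycomb protein, stood at 79.8 ± 17.7 CPM in CKO and 101 ± 20.1 CPM in flox, and the 5 log2 fold changes ran from -0.35 to -0.19, or from -0.16 to -0.09 without flox 1 and flox 4. Among the members, Rasal3 had a correlation of 0.63 with Rasa4 by this measure, while the other 6 were between -0.60 and -0.27.

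The other genes of the Ras pathway were examined as 6 lists of 79 genes, of which 75 passed the filter. The edgeR test called 0 of them at an adjusted p of 0.05, with 3 higher and 3 lower at an unadjusted p under 0.05 (background 5.05% higher and 7.91% lower). DESeq2 called 1, which was lower, where it called 1.21% of all genes (0.804% lower in CKO). Their median log2 fold change was 0.02, with 41 higher and 34 lower, and -0.02 without flox 1 and flox 4, with 36 higher and 39 lower. In 2 of the 75 the groups did not overlap in CPM, Rap1gap below and Spred1 above, which is 2.67% against 2.18% of all tested genes.

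Among the 14 GAPs of Rap and Ral and other proteins with a GAP-related domain, 8 were higher and 6 lower in CKO (median log2 fold change 0.01). Rap1gap, which turns off Rap, a relative of Ras in cell adhesion, read 91.7, 100, 78.5, 97.3 and 63.9 CPM in CKO 1 to 5 and 119, 184, 137, 130 and 107 CPM in flox 1 to 5. All its CKO values lay below all its flox values. The fold change on the log2 scale was -0.65 ± 0.17 (SE; edgeR adjusted p = 0.311). Rap1gap was the gene of these lists that DESeq2 called. When flox 1 and flox 4 were left out its log2 fold change was -0.71, and DESeq2 called 0 genes of the 6 lists. Garnl3 and Ralgapa1 had log2 fold changes of -0.69 ± 0.39 and 0.36 ± 0.23 (SE; edgeR adjusted p = 0.431 and 0.463), and of -0.73 and 0.09 without the pair. Without flox 1 and flox 4 the median of this list was -0.13, with 4 higher and 10 lower.

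Of the 14 Ras family GTPases 7 were higher and 7 lower (median 0.04); without flox 1 and flox 4, 10 were higher and 4 lower (median 0.05). Rap2b and Rap2a had log2 fold changes of 0.44 ± 0.19 and 0.30 ± 0.14 (SE; edgeR adjusted p = 0.381 and 0.383), and of 0.49 and 0.19 without the pair. Hras, 1 of the classical Ras genes, stood at 76.5 ± 23.0 CPM in CKO and 120 ± 58.4 CPM in flox (edgeR adjusted p = 0.393), and its log2 fold change of -0.64 was -0.03 without flox 1 and flox 4. Of 11 tested exchange factors 6 were higher and 5 lower (median 0.08), and without the pair 4 were higher and 7 lower (median -0.08). Sos1, the exchange factor that couples receptors to Ras, stood at 21.1 ± 1.65 CPM in CKO and 16.5 ± 5.39 CPM in flox (edgeR adjusted p = 0.436), a log2 fold change of 0.35 that was 0.11 without the pair. Rapgef2, an exchange factor of Rap, and Rasgrp4, one of Ras in blood cells, had log2 fold changes of 0.44 ± 0.23 and -0.55 ± 0.40 (SE; edgeR adjusted p = 0.406 and 0.507), and of 0.20 and -0.0044 without flox 1 and flox 4.

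Among the adaptors and inhibitors, 10 tested, 6 were higher and 4 lower (median 0.12), and without flox 1 and flox 4, 5 were higher and 5 lower (median -0.01). Spred1, which recruits neurofibromin to the membrane, read 24.0, 20.2, 19.8, 19.3 and 19.2 CPM in CKO 1 to 5 and 17.3, 18.2, 16.3, 18.4 and 19.1 CPM in flox 1 to 5. Its groups did not overlap, as for Nf1, but the gap was narrow, with a log2 fold change of 0.20 ± 0.11 (SE, edgeR adjusted p = 0.417), and of 0.21 without the pair. Dok3 and Dok2, adaptors of blood cells, were under 1 CPM on average in both groups. Their log2 fold changes were -0.59 ± 0.44 and 0.67 ± 0.53 (SE; edgeR adjusted p = 0.511 and 0.540), and -0.10 and 0.86 without the pair.

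In the Raf, MEK and ERK cascade 8 of 14 were higher and 6 lower (median 0.03), and 7 and 7 without flox 1 and flox 4 (median 0.02). Araf, a Raf kinase, stood at 73.8 ± 5.16 CPM in CKO and 91.6 ± 11.7 CPM in flox, and Mapk3, an ERK kinase, at 450.4 ± 71.8 CPM in CKO and 615 ± 123 CPM in flox (edgeR adjusted p = 0.372 and 0.374). The log2 fold changes were -0.31 for Araf and -0.45 for Mapk3, and -0.17 and -0.24 without the pair. Map2k2, a MEK kinase, had a log2 fold change of -0.70 ± 0.33 (SE, edgeR adjusted p = 0.387), and of -0.04 without flox 1 and flox 4. The 14 transcriptional targets of ERK split evenly, 7 higher and 7 lower (median -0.01), with and without the pair. Epha4 stood at 6.17 ± 1.56 CPM in CKO and 3.91 ± 1.32 CPM in flox, Ccnd1, the cyclin of the G1 phase, at 122 ± 17.1 CPM in CKO and 103 ± 15.1 CPM in flox, and Ier3 at 8.56 ± 1.47 CPM in CKO and 9.50 ± 1.35 CPM in flox (edgeR adjusted p = 0.374, 0.442 and 0.650). Their log2 fold changes were 0.65, 0.24 and -0.15, and 0.42, 0.11 and -0.06 without the pair. Dusp6, the ERK phosphatase often used to read out the pathway, differed by 0.0031 on the log2 scale (-0.10 without the pair), and was named here after its value was seen.

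**Figure D5:**
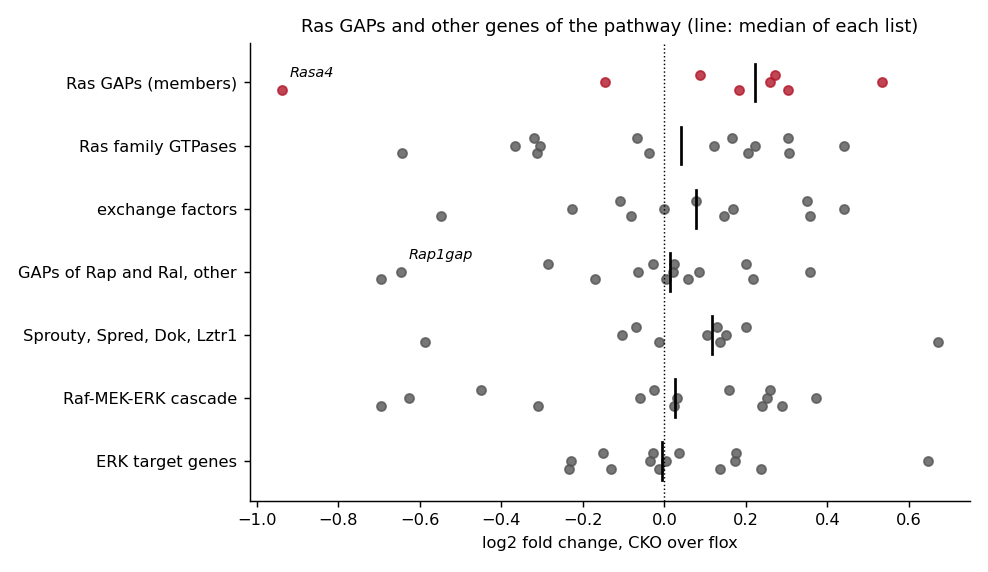
Log2 fold change, CKO over flox, of the 8 tested Ras GAPs (red) and of the tested genes of 6 other lists of the Ras pathway (grey), 1 point per gene, with the median of each list as a vertical line. Rasa4 at -0.94 has the lowest value among the points shown, Rap1gap lies at -0.65, and the medians of the 6 lists lie between -0.01 and 0.12.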

How the data were processed

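Crypt RNA of 5 CKO and 5 flox libraries was sequenced after mRNA enrichment, per the labels' protocols. The submitters' processing notes name fastp and HISAT2; for build, annotation, counter and strand the sources used here give nothing. The deposited counts are whole reads per Ensembl gene ID, and the deposited FPKM are the authors' values per length and library total. Of 33632 gene IDs 26102 had a symbol in GENCODE M21 (GRCm38), used for names, lengths and neighbours. Libraries were scaled by TMM, and filterByExpr left 14963 genes. Groups were compared with edgeR 4.0.16 (robust quasi-likelihood test, R 4.3.3), p-values were adjusted by Benjamini-Hochberg over all tested genes, and the threshold was 0.05. CPM use the TMM-scaled total; log2 CPM have a prior count of 2. The fit was tested on simulated data. Alternatives were other scalings and filters, DESeq2 1.42.0, limma 3.58.1 (voom; log2 FPKM with pseudocounts 1 and 0.1), the mitochondrial share as a covariate, a replicate block and libraries left out. Members, lists and tests were chosen with earlier results of these data known. Genes named from a list are those past the threshold or the 3 with the smallest p, the 5 most like Rasa4 and the 2 nearest protein-coding genes on each side of it. The promoter is from RefSeq. No pair of libraries agreed within sampling noise (lowest chi-square per degree of freedom 30.0).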

Additional observations from a re-analysis of the deposited data

Results flagged for a closer look

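The FPKM of Rasa4 in CKO 2 was 38.4, while the other 4 CKO libraries lay between 28.3 and 30.7. Its gap to the nearest of them was 0.760 of the range of the group (Dixon's ratio), above the 95% critical value for 5 samples. In all, 22 groups of values were looked at in this way, and chance flags about 1 in 20.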

How the results depend on the processing

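The log2 fold change of Rasa4 was negative in all 25 alternatives, from -1.05 to -0.34. It moved by more than the spread between replicates in 2 of them, to -0.34 in log2(FPKM + 1) and -0.35 in log2(FPKM + 0.1). With 1 library left out it ran from -1.05 to -0.84. The median of the other 7 members was positive in all 25, from 0.03 to 0.61; the 0.61 came from log2(FPKM + 0.1), and with 1 library left out it ran from 0.15 to 0.34. Rasa4 relative to the other members was -1.18, and -0.72 in log2(FPKM + 1), with a range of -1.31 to -1.0 when 1 library was left out. The edgeR count of 0 genes became 178 with DESeq2 (60 higher and 118 lower), 71 with DESeq2 without flox 1 and flox 4, 44 with quality weights in limma voom, 3 with no filter and 1 once mitochondrial share was added as a covariate, and ran from 0 to 2 with 1 library left out, the 2 being without flox 2. The count of pathway genes was 1 with DESeq2 and 0 in the other 24. The cause of these shifts was not tested. The replicate block gave 0 genes, -0.94 for Rasa4 and a median of 0.26 for the others, and changed no call. Same-numbered libraries deviated with correlations of -0.30, 0.28, 0.09, 0.40 and -0.06, and 2 of 10 libraries correlated best with their own number, so the numbers were not taken as pairs. DESeq2 without flox 1 and flox 4, the FPKM divided by the TMM factor and the removal of the trend on gene length were chosen after seeing the data. Depth limits Rasal1 and Rasal3.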
